A study of Rattus norvegicus with 28 samples.

Results

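The mitochondrial respiratory chain and ATP synthase were followed in the amygdala of infant rats through 31 genes, chosen by symbol from 4796 named genes on the arrays. The rule took every probe set with 1 gene symbol that begins with Nduf, Cox4 to Cox8, Uqcr, Sdha to Sdhd or Atp5, or that is Cycs, and kept for each gene the probe set with the highest mean over all arrays. It matched 34 probe sets of 15866, because Cox5a, Sdhd and Cycs have 2 each. The members were 4 genes of complex I, 2 of complex II, 0 of complex III, 11 of complex IV, 13 of the ATP synthase, and Cycs. The rule names no measured value except the mean that picks among probe sets of 1 gene.

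Oxidative phosphorylation passes electrons taken from nutrients to oxygen in steps. Complex I takes them from NADH and complex II from succinate, ubiquinone and complex III pass them to cytochrome c, and complex IV hands them to oxygen, while protons pumped along the way drive the rotating ATP synthase, complex V. Neurons draw most of their ATP from it, and the demand of rodent brain rises as synapses and myelin form after birth. Complex II is the one complex encoded wholly in the nucleus and is also an enzyme of the tricarboxylic acid cycle. Several subunits of complex IV exist in pairs of isoforms, with one form found in most tissues and another in muscle, heart or lung.

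The 28 arrays, 1 sample each, held total RNA of the amygdala of pups killed directly after 11 trials of a peppermint odor and a tail shock. Paired pups received the shock as the odor ended, and unpaired pups 2 min after it. The pups were 12 days old without an agent (4 paired and 4 unpaired arrays), 8 days old with corticosterone, the glucocorticoid hormone of the rat (3 and 3), or 8 days old with saline (7 and 7). All 6 groups thus had odor and shock, and none was untrained. Nothing in the labels tells single pups from pooled ones, and p-values therefore measure the spread between samples, which may be technical. Replicates 3 and 4 of the 12-day and saline groups were on a larger array design (8 arrays), and all others on a smaller one (20 arrays).

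Each condition had a level of its own, with array medians of 6.38 to 6.46 on the log2 scale in 12-day arrays, 5.06 to 5.09 in corticosterone arrays and 6.05 to 6.19 in saline arrays. Levels were therefore compared between conditions as within-array percentiles, where 100 is the brightest probe set of an array, and differences are given in percentile points. Saline replicates 5 to 7 stood apart from saline replicates 1 and 2 on the same design, with a mean rank correlation of 0.982 between these sets and of 0.993 and 0.994 within them. These sets were seen in the values and are not named in the labels. The number of arrays limited the precision. As a check of the tissue, the 6 measured neuron markers averaged percentiles of 96.8 to 98.0 on 12-day arrays, 92.8 to 93.7 on corticosterone arrays and 94.7 to 97.4 on saline arrays.

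Promoters of 27 of the 31 members were found in RefSeq (GRCr8) and searched on both strands for 3 motifs of factors known to drive nuclear genes of mitochondria. The core motif of NRF1 was in 8 of the 27 (29.6%), against 4.25% of 33469 promoters of the same length. CCGGAAG, read by ETS factors such as GABP, was in 8 (29.6%, against 8.75%), and AAGATGGC, read by YY1, in 5 (18.5%, against 3.17%). A palindromic NRF1 match counts on both strands, as in Atp5g2, Atp5o and Atp5k. The 4 promoters below belong to members that were higher in 12-day pups on both array designs, and run from 250 bases before the start site to 50 after it, 5′ to 3′ along the gene, with motif matches in capitals.
Sdha promoter, chr1:30764303-30764602, plus strand: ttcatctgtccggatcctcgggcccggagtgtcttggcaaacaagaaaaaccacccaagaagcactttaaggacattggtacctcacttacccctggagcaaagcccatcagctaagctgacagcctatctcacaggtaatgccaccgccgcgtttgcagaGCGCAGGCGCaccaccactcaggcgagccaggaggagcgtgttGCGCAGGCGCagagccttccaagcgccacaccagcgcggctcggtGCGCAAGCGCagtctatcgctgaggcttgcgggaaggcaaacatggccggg
Sdhd promoter, chr8:59850592-59850891, minus strand: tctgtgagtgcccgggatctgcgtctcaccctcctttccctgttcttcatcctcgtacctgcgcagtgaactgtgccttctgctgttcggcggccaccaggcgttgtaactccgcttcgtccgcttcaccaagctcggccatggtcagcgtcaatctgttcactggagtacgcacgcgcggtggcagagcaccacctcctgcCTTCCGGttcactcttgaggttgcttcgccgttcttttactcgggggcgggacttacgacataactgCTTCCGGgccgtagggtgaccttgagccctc
Ndufv2 promoter, chr9:113157471-113157770, minus strand: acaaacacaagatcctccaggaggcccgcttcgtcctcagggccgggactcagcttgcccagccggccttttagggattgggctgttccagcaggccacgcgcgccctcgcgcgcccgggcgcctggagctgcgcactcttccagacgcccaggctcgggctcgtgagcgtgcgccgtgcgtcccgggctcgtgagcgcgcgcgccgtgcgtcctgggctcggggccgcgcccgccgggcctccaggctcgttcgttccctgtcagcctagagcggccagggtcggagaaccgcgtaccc
Cycs promoter, chr4:80984718-80985017, minus strand: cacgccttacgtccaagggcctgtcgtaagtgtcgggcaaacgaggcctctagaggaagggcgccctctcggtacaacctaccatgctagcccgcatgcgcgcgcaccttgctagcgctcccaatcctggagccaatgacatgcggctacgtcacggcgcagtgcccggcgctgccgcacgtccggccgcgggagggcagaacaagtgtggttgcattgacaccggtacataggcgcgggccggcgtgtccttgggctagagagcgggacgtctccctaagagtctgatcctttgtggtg
Sdha holds 3 NRF1 matches, whose first bases lie at -89, -46 and -1 from the start site. Sdhd holds 2 ETS matches on the other strand, at -48 and 20. None of the 3 motifs is in the windows of Ndufv2 and Cycs. These matches describe letters only and show no binding.

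Most of the chain was among the brightest probe sets. On every array 28 of the 31 members lay above percentile 80, 25 of them above percentile 90 and 18 above percentile 95, with the lowest single value at 82.6 for Ndufa5, an accessory subunit of complex I. The exceptions were Cox4b, Cox6a2 and Cox8h, the files' names for the isoforms Cox4i2, Cox6a2 and Cox8b, which stayed below percentile 45 on every array. Cox4b, the isoform best known from lung, measured 1.88 to 1.99 on the log2 scale in 12-day arrays, 2.15 to 2.38 in corticosterone arrays and 2.05 to 2.50 in saline arrays, where percentile 10 of an array lay at 2.01 to 2.13, 2.25 to 2.30 and 2.09 to 2.22 in the same order of conditions. Cox8h, a heart and muscle isoform, measured 2.38 to 2.53 in 12-day, 2.71 to 2.86 in corticosterone and 2.41 to 3.65 in saline arrays. Their partners of most tissues, Cox4a (Cox4i1), Cox6a1 and Cox8a, were above percentile 97 on every array. Probes differ in brightness, so these values place each probe set on its array and give no ratio between isoforms.

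Age was the first comparison, 12-day against 8-day saline pups, in limma fits with training as a covariate and Benjamini-Hochberg adjustment over all 15866 probe sets. The pups differ in age, in the saline and in the set normalized together, which cannot be told apart. On the larger design (4 arrays against 4), 19 of 31 members were higher in 12-day pups and 4 lower, 61.3% and 12.9%, against 36.6% and 30.6% of all probe sets. On the smaller design (4 against 10), 8 were higher and 1 lower, 25.8% and 3.23%, against 28.6% and 24.2% of all probe sets, so the share of higher members there was near the background. The median difference of the members was 0.470 percentile points on the larger design and 0.192 on the smaller, where that of all probe sets was 0.170 and 0.167. A member at percentile 99 has only 1 point above it, so shifts of the brightest members are small on this scale.

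The smaller design gave different counts with each saline set. Against saline replicates 1 and 2, 16 members were higher in 12-day pups and 2 lower (background 31.1% and 27.5%). Against replicates 5 to 7, 10 were higher and 8 lower (background 35.5% and 29.5%). With the replicate number as a block, which leaves the comparison to replicates 1 and 2, 15 were higher and 1 lower (background 26.7% and 24.7%). Without 12-day paired replicate 2 or without 12-day unpaired replicate 2, the 9 calls on the smaller design became 5. Called higher on both designs were 8 members, Atp5a1, Cox6a2, Cox6c, Cox7b, Cycs, Ndufv2, Sdha and Sdhd, 8 of 31 where 23.8% of all probe sets were called higher on both, and 0 were called lower on both (20.1% of all). The share of members higher on both was thus near that of all probe sets. Of the 8, 6 were also called higher against each saline set alone, where 19.8% of all probe sets were, again a share near the background, and Atp5a1 and Cycs were not called against saline replicates 1 and 2.

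By symbol, complex II was measured through Sdha, the flavoprotein that oxidises succinate, and Sdhd, a membrane anchor of the complex. The member probe sets of both rose in 12-day pups. A probe set without a symbol, with a title of similarity to the succinate dehydrogenase Ip subunit, was called on neither design. It differed by 0.459 (adjusted p = 0.136) on the larger and -1.08 (adjusted p = 0.186) on the smaller. Sdha lay at percentiles 93.9, 94.6, 95.2 and 95.2 in 12-day pups, against 90.8, 91.5, 91.8 and 92.3 in saline pups, on the larger design. On the smaller design it lay at 95.3, 95.6, 96.3 and 96.5 in 12-day pups, against 92.4 to 94.7 (median 93.2, n = 10) in saline pups. All 8 values of 12-day pups were above those of the saline pups on the same design. Such a separation was common on these arrays. Every 12-day array was above every saline array for 35.2% of all probe sets on the larger and 20.1% on the smaller design. It was so for 19 of 31 members on the larger design, and for 7 on the smaller, a share near the background. The differences were 3.14 (SE 0.384, adjusted p = 4.06e-04) on the larger and 2.76 (SE 0.400, adjusted p = 8.69e-05) percentile points on the smaller design. As log2 value minus the array median, Sdha rose by 0.69 (SE 0.09, adjusted p = 9.10e-05) and 0.72 (SE 0.09, adjusted p = 4.49e-06), on a scale where the median probe set shifted by -0.24 and -0.27.

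Sdhd lay at 93.9, 94.1, 94.4 and 94.7 in 12-day pups, against 91.1, 91.9, 92.1 and 92.9 in saline pups, on the larger design. On the smaller design it lay at 95.1, 95.1, 95.3 and 95.5 in 12-day pups, against 91.4 to 93.4 (median 92.8, n = 10) in saline pups. Again there was no overlap on either design, as for 35.2% of all probe sets on the larger and 20.1% on the smaller. The differences were 2.27 (SE 0.378, adjusted p = 0.00179) and 2.60 (SE 0.313, adjusted p = 1.66e-05) percentile points. The second probe set of Sdhd went the other way. It lay at 79.98, 80.92, 82.85 and 83.97 in 12-day pups, against 83.60, 84.25, 85.50 and 85.61 in saline pups on the larger design, a difference of -2.81 (SE 0.764, adjusted p = 0.0155). On the smaller design that probe set differed by -2.42 (SE 1.07, adjusted p = 0.0734). The probe sets of Sdhd thus disagree in sign, and the direction given for this gene is that of its brighter probe set. With the median over both probe sets in place of the brighter one, Sdhd differed by 0.83 (adjusted p = 0.199) and 0.84 (adjusted p = 0.192).

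**Figure D1:**
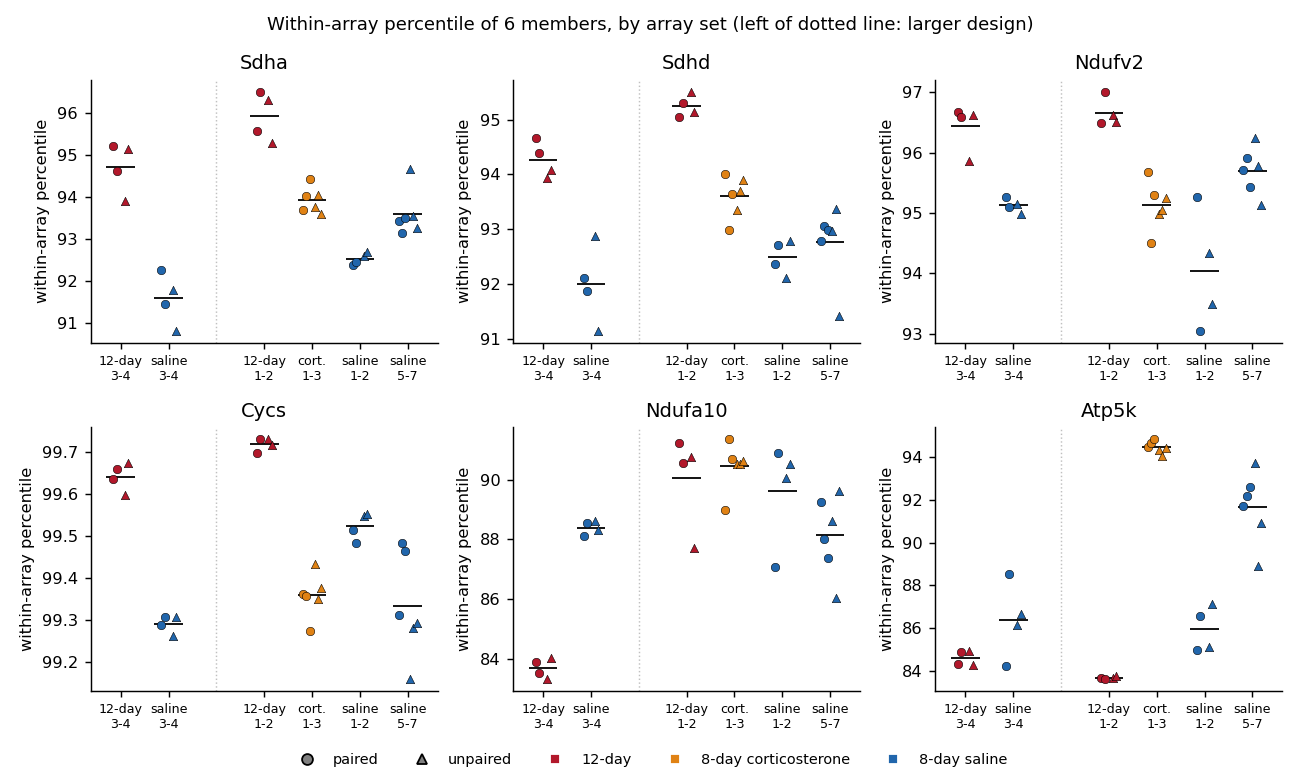
Within-array percentile (y axis) of 6 members on each of 28 arrays, grouped by condition and replicate numbers, with the larger design left of the dotted line; circles are paired and triangles unpaired pups, and bars are means of a set. Sdha and Sdhd lie above all saline arrays of the same design in 12-day pups, whereas Ndufa10 lies below them only on the larger design and Atp5k differs between the saline sets. Of all probe sets, 35.2% lie above without overlap on the larger and 20.1% on the smaller design, and 29.0% and 18.1% below.

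The 4 complex I members were split on the larger design, with 2 higher and 1 lower in 12-day pups (background 36.6% and 30.6%). On the smaller design 1 was higher and 0 lower (background 28.6% and 24.2%). Ndufv2, a subunit of the NADH-oxidising arm that holds an iron-sulfur cluster, lay at 95.86, 96.59, 96.63 and 96.68 in 12-day pups, against 94.99, 95.10, 95.15 and 95.27 in saline pups on the larger design. In the other design it lay at 96.49, 96.51, 96.63 and 97.01, against 93.05 to 96.24 (median 95.35, n = 10) in saline pups. It rose by 1.31 (SE 0.188, adjusted p = 8.61e-04) and 1.62 (SE 0.552, adjusted p = 0.0252) percentile points. Its groups did not overlap on either design, as for 35.2% of all probe sets on the larger and 20.1% on the smaller. Ndufs6, an accessory subunit that binds zinc, rose by 2.11 (SE 0.219, adjusted p = 1.82e-04) on the larger design, where it measured 96.7 ± 0.160 in 12-day pups and 94.5 ± 0.408 in saline pups (SD, n = 4 each), and differed by 0.740 (SE 0.307, adjusted p = 0.0593) on the smaller. Against saline replicates 1 and 2, Ndufs6 rose by 1.37 (SE 0.138, adjusted p = 2.17e-04). Ndufa5 passed in neither design, with 0.700 and -2.12 (adjusted p = 0.542 and 0.255).

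Ndufa10, an accessory subunit of the complex I membrane arm, went apart by array design. On the larger design it lay at 83.3, 83.5, 83.9 and 84.0 in 12-day pups, against 88.1, 88.3, 88.6 and 88.6 in saline pups, a difference of -4.71 (SE 0.247, adjusted p = 6.21e-06). On the smaller design the values were 87.7, 90.6, 90.8 and 91.2 in 12-day pups, against 86.0 to 90.9 (median 88.9, n = 10) in saline pups, and the difference was 1.32 (SE 0.941, adjusted p = 0.261). The age difference itself differed between the designs by -5.15 (SE 1.18, adjusted p = 0.0257), larger minus smaller, in a fit without saline replicates 5 to 7. Of all probe sets 5.61% were called in that test, and of the members only Ndufa10 and Cox6a2 (-23.7, SE 2.09, adjusted p = 9.95e-05). On log2 values minus the array median the Ndufa10 difference was -0.59 (SE 0.16, adjusted p = 0.0539), and Atp5g3 was called in its place at -0.25 (SE 0.06, adjusted p = 0.0284).

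Cycs, cytochrome c, is the mobile carrier between complexes III and IV and, once released from mitochondria, a trigger of apoptosis. It lay at 99.60, 99.63, 99.66 and 99.67 in 12-day pups, against 99.26, 99.29, 99.31 and 99.31 in saline pups on the larger design. The smaller design had it at 99.70 to 99.73 (n = 4) in 12-day pups, against 99.16 to 99.55 (median 99.47, n = 10) in saline pups. Groups did not overlap, as for 35.2% of all probe sets on the larger and 20.1% on the smaller design. Cycs rose by 0.350 (SE 0.0660, adjusted p = 0.00317) and 0.309 (SE 0.111, adjusted p = 0.0333) percentile points, or by 0.27 and 0.30 as log2 minus the array median. Against saline replicates 1 and 2 alone the difference was 0.194 (SE 0.0881, adjusted p = 0.0998). Its second, dimmer probe set differed by 0.348 (SE 0.148, adjusted p = 0.0752) on the larger and by -0.596 (SE 0.261, adjusted p = 0.0722) on the smaller design.

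In complex IV, 7 of 11 members rose and 1 fell in 12-day pups on the larger design, and 3 rose and 0 fell on the smaller. The 1 that fell was Cox4b, and the 7 that rose include Cox6a2 and Cox8h, the isoforms that stayed below percentile 45. Cox6a2 was also among those that rose on the smaller design. Of all probe sets 36.6% and 30.6% were higher and lower on the larger design, and 28.6% and 24.2% on the smaller, where the share of complex IV members that rose was at the background. Set against saline replicates 1 and 2, 9 rose and 1 fell (background 31.1% and 27.5%), and the 1 that fell was again Cox4b. Against replicates 5 to 7, 3 rose and 0 fell (background 35.5% and 29.5%). Cox6c, a small subunit of the complex, rose by 0.533 (SE 0.0912, adjusted p = 0.00203) and 0.370 (SE 0.114, adjusted p = 0.0155), and Cox7b, another small structural subunit, by 0.769 (SE 0.131, adjusted p = 0.00196) and 0.466 (SE 0.166, adjusted p = 0.0315). Cox6c measured 99.50 ± 0.0533 in 12-day and 99.0 ± 0.133 in saline pups on the larger design (percentile, SD, n = 4 each). Cox7b measured 98.4 ± 0.182 in 12-day pups and 97.7 ± 0.140 in saline pups there. Cox5b (0.581), Cox7a3, the file's name for Cox7a2 (0.583), and Cox6a1 (0.334) rose on the larger design and against saline replicates 1 and 2, with differences of 0.133, 0.180 and 0.171 that did not pass on the smaller design as a whole. Cox5a, a nuclear-encoded subunit on the matrix side, differed by -0.0016 and 0.143 (adjusted p = 0.993 and 0.307), and its second probe set by 0.0394 and -6.16 (adjusted p = 0.986 and 0.0431). Cox4a and Cox8a passed on neither design.

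Cox6a2, the heart and muscle isoform, was among the dimmest probe sets in saline pups. It measured 3.66, 3.76, 4.66 and 4.76 on the log2 scale in 12-day pups of the smaller design and 2.18, 2.19, 2.21 and 2.23 in those of the larger design. In saline pups it measured 1.65 to 2.08 on the smaller and 1.71 to 1.74 on the larger design. Percentile 5 of the saline arrays lay at 1.89 to 2.02, and most saline values were under it, so their distance below the 12-day values is poorly measured. Every 12-day value was above every saline value. In rank, 35.2% of all probe sets were so separated on the larger and 20.1% on the smaller design. The rank difference of Cox6a2, which rests on those dim values, was 11.2 percentile points on the larger and 36.4 on the smaller design (adjusted p = 1.21e-08 and 1.65e-10). Of the 6 measured markers of skeletal or heart muscle, 1 was called higher and 0 lower on the larger design (background 36.6% and 30.6%). On the smaller, 2 were higher and 2 lower (background 28.6% and 24.2%). The mean percentile of these markers was 31.4 to 33.4 in 12-day and 32.0 to 33.9 in saline pups. Their part in the Cox6a2 result was not tested. Cox8h rose in rank by 1.22 on the larger design, yet fell by 0.31 as log2 minus the array median there, so its direction rests on the scaling.

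**Figure D2:**
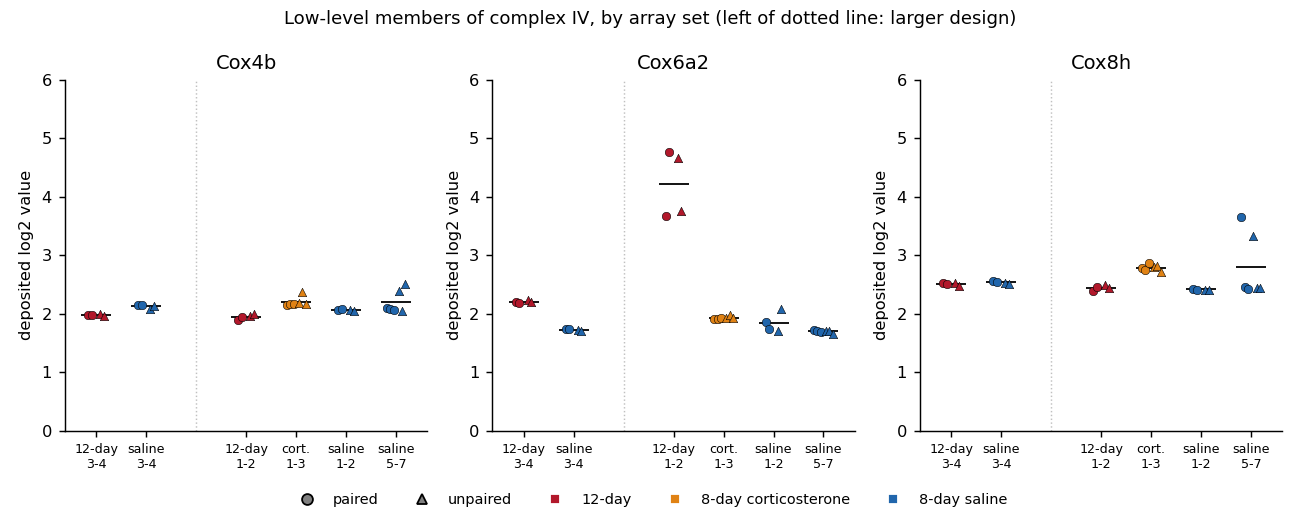
Deposited log2 values (y axis) of the 3 isoforms that stayed below percentile 45, on each of 28 arrays grouped by condition and replicate numbers, with the larger design left of the dotted line; circles are paired and triangles unpaired pups, and bars are means of a set. Cox6a2 lies between 3.66 and 4.76 on the 4 12-day arrays of the smaller design and below 2.3 on the other 24, and Cox8h is raised on both saline arrays numbered 5.

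In the ATP synthase, 7 of 13 members rose and 2 fell in 12-day pups on the larger design, but only Atp5a1 rose and Atp5k fell on the smaller, against 36.6% and 30.6% of all probe sets on the larger and 28.6% and 24.2% on the smaller. With saline replicates 1 and 2 alone, 3 rose and 1 fell (background 31.1% and 27.5%). Against replicates 5 to 7, 3 rose and 7 fell (background 35.5% and 29.5%). Atp5a1, the alpha subunit of the catalytic head, rose by 0.470 (SE 0.0978, adjusted p = 0.00494) and 0.438 (SE 0.155, adjusted p = 0.0308), though its difference against saline replicates 1 and 2 was 0.206 (SE 0.106, adjusted p = 0.135). Atp5b, the catalytic beta subunit, differed by 0.169 (SE 0.0710, adjusted p = 0.0735) and 0.233 (SE 0.128, adjusted p = 0.146). Among the 3 genes of the membrane ring subunit c, Atp5g1 rose by 1.12 (SE 0.105, adjusted p = 1.11e-04) on the larger design, Atp5g2 fell by 0.670 (adjusted p = 0.00316), and Atp5g3 differed by 0.0173 (adjusted p = 0.84). Peripheral stalk subunits rose there too, Atp5j by 1.67, Atp5f1 by 0.684 and Atp5jd by 0.362 (adjusted p = 3.60e-04, 0.00189 and 0.0139), and the stalk subunit Atp5o differed by 0.238 (adjusted p = 0.141). Of the central stalk, Atp5c1 and Atp5e rose by 0.482 and 0.411, while Atp5d fell by 0.956 (adjusted p = 0.00649, 0.0209 and 0.00645).

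Several ATP synthase members changed sign with the saline set. Against saline replicates 1 and 2, Atp5g1 rose by 0.933 (SE 0.155, adjusted p = 0.00219) and Atp5o by 0.644 (SE 0.217, adjusted p = 0.039). Against saline replicates 5 to 7, Atp5g1 fell by 0.701 (adjusted p = 0.0126) and Atp5o by 1.55 (adjusted p = 5.38e-05). Atp5k, subunit e at the face where synthase dimers meet, kept its sign. It lay at 83.7, 83.7, 83.7 and 83.8 in 12-day pups of the smaller design, against 85.0 to 87.1 in saline replicates 1 and 2 and 88.9 to 93.7 in replicates 5 to 7. Its 12-day values were below all saline values there, as for 18.1% of all probe sets, and the difference was -5.70 (SE 1.64, adjusted p = 0.0108). On the larger design Atp5k lay at 84.3, 84.3, 84.9 and 85.0 in 12-day pups, against 84.3, 86.1, 86.7 and 88.5 in saline pups, with overlap and a difference of -1.77 (SE 0.874, adjusted p = 0.115).

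**Figure D3:**
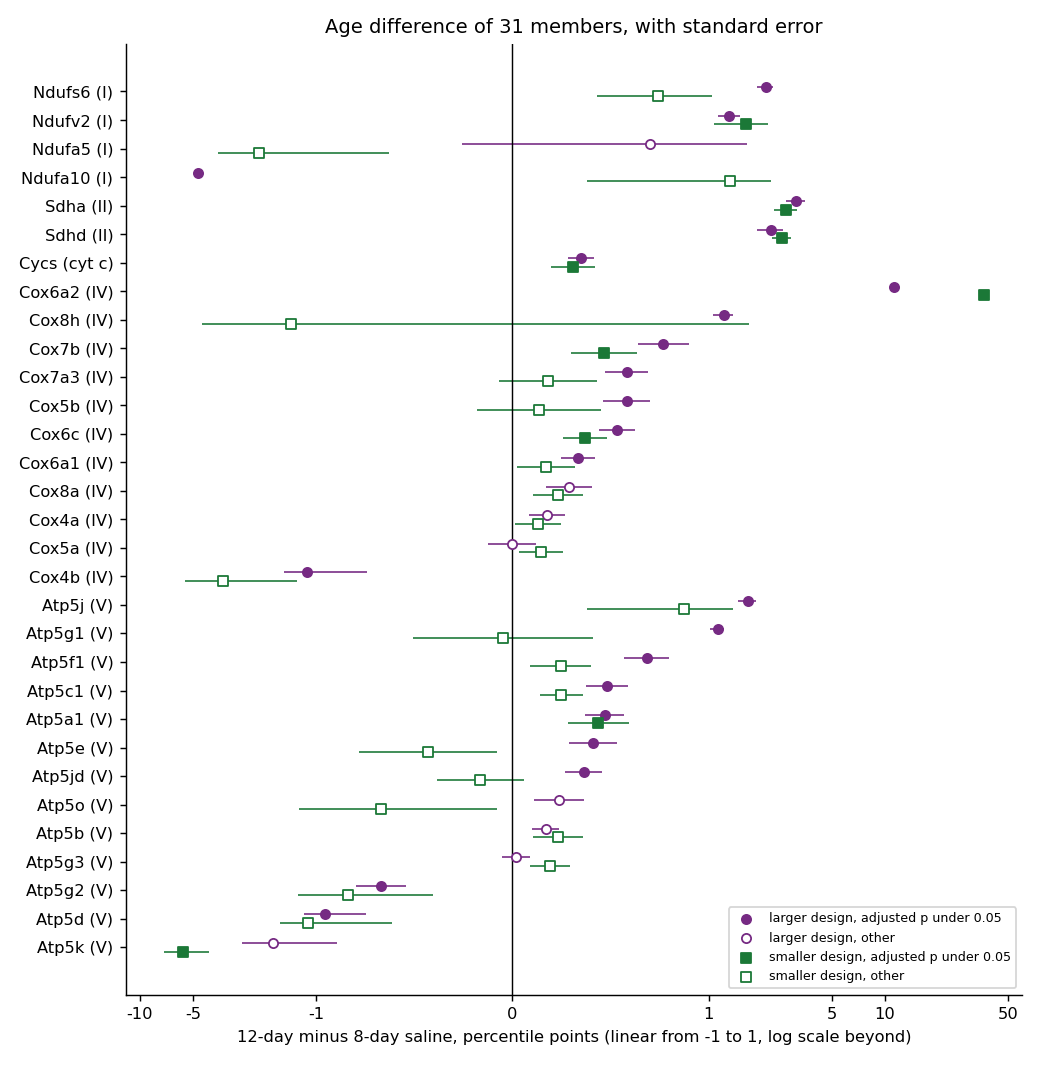
Difference of 12-day minus 8-day saline pups in percentile points (x axis, linear from -1 to 1 and log-scaled beyond) for each of 31 members, ordered by complex; circles are the larger and squares the smaller design, filled where the adjusted p is under 0.05, and bars are standard errors. Sdha and Sdhd lie between 2.27 and 3.14 on both designs, and Ndufa10 lies at -4.71 on the larger and 1.32 on the smaller design.

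The level of the chain as a whole differed between the array sets. The median of the 31 members lay at percentiles of 97.7 to 98.1 on the 8 12-day arrays. On saline arrays it lay at 96.9 to 97.5 on replicates 3 and 4, at 97.2 to 97.4 on replicates 1 and 2 and at 98.2 to 98.5 on replicates 5 to 7. The 12-day pups were thus above the first pair of saline sets and below the third, without overlap in either case. As log2 minus the array median, the member median was 5.98 to 6.15 in 12-day pups, 5.63 to 5.89 in saline replicates 1 to 4 and 6.20 to 6.38 in replicates 5 to 7. Another scaling moved the background itself. On log2 minus the array median, 20 members were higher and 3 lower on the larger design, against 23.3% and 53.8% of all probe sets, and 10 and 2 on the smaller design, against 18.5% and 47.9%. The member median there was 0.19 and 0.11, where that of all probe sets was -0.24 and -0.27.

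**Figure D4:**
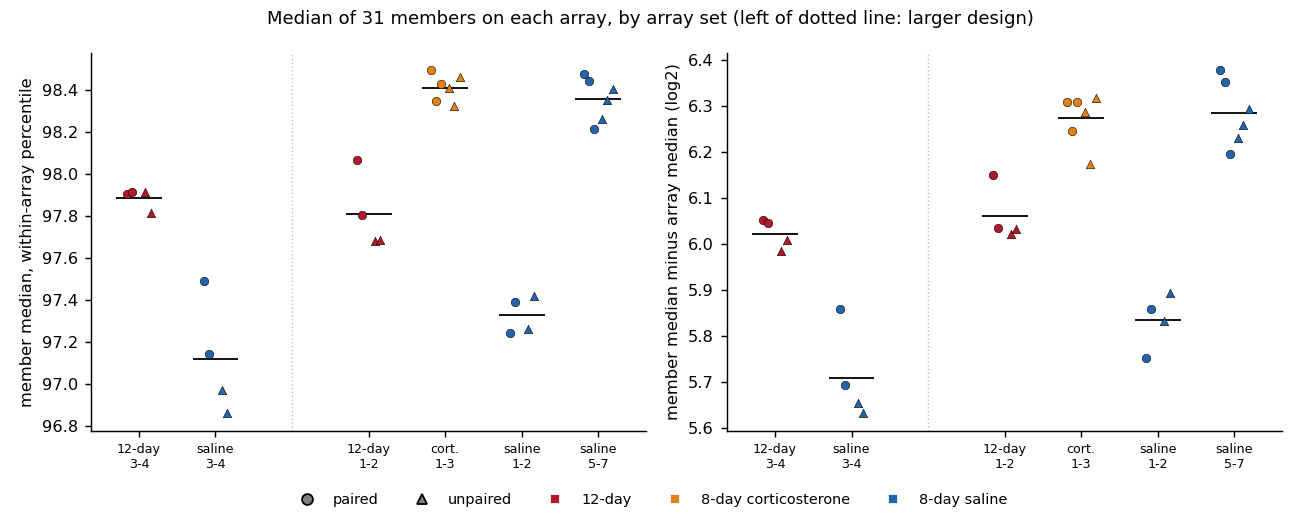
Median of the 31 members on each of 28 arrays, as within-array percentile (left) and as log2 minus the array median (right), grouped by condition and replicate numbers with the larger design left of the dotted line; circles are paired and triangles unpaired pups, and bars are means of a set. The 12-day arrays lie above saline replicates 1 to 4 and below saline replicates 5 to 7.

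Markers of other cells moved with age on the same arrays. All 7 oligodendrocyte markers were higher in 12-day pups on both designs, with medians of 25.9 and 23.8 percentile points, and their mean percentile was 92.4 to 95.7 in 12-day and 61.8 to 74.8 in saline pups. Of the 3 measured microglia markers 3 were higher on both designs, of 7 astrocyte markers 4 were, and of 6 neuron markers 3 were. Of all probe sets 23.8% were higher and 20.1% lower on both designs. Saline replicates 5 to 7 and 1 and 2 also differed in markers, with a mean neuron percentile of 94.7 to 95.9 and 96.9 to 97.4, and a mean percentile of hypothalamus markers of 59.3 to 63.4 and 46.5 to 56.4. Their part in the results on the chain was not tested, and in these tissue samples more cells of a type and more RNA per cell cannot be told apart.

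Probe sets without a symbol but with a title of similarity to a subunit gave a view of what the symbols miss. There were 37, of which 26 were for complex I, 1 for complex II, 7 for complex III and 3 for the ATP synthase. On the larger design 17 were higher in 12-day pups and 2 lower, and on the smaller design 4 and 3, against 36.6% and 30.6% of all probe sets on the larger and 28.6% and 24.2% on the smaller. The smaller design split by saline set, with 19 higher and 2 lower against replicates 1 and 2 (background 31.1% and 27.5%). Against replicates 5 to 7, 3 were higher and 16 lower (background 35.5% and 29.5%). Of the 26 for complex I, 13 were higher and 1 lower on the larger design, and 4 and 2 on the smaller. They gave 16 and 1 against replicates 1 and 2, and 3 and 11 against replicates 5 to 7. Of the 7 for complex III, 4 were higher on the larger and 0 on the smaller design. The 1 for complex II was called on neither whole design. It differed by 0.361 (adjusted p = 0.262) from saline replicates 1 and 2 and by -2.05 (adjusted p = 9.99e-05) from replicates 5 to 7. On both designs 3 of the 37 were higher and 1 was lower, where 23.8% and 20.1% of all probe sets were. Both counts were below those shares. The 3 higher were all of complex I, led by one similar to the human 75-kDa subunit (5.82 and 4.01 percentile points). A probe set similar to the ATP synthase e chain, the subunit that Atp5k encodes, was lower on both, by -3.47 (adjusted p = 1.12e-08) and -3.85 (adjusted p = 4.24e-10).

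Genes around the chain were read from lists of energy pathways, beside 23.8% of all probe sets higher and 20.1% lower on both designs. Of 9 measured genes of the tricarboxylic acid cycle and pyruvate dehydrogenase, 4 were higher in 12-day pups on both designs and 0 lower on both. Suclg1, a subunit of succinyl-CoA ligase, which makes the succinate that complex II uses, rose by 5.86 (SE 0.403, adjusted p = 2.42e-05) and 3.42 (SE 0.340, adjusted p = 2.67e-06). Dlat, a subunit of pyruvate dehydrogenase, rose by 5.34 and 10.3 (adjusted p = 1.30e-04 and 0.00636), but differed by 6.30 (SE 2.39, adjusted p = 0.0584) from saline replicates 1 and 2 alone, where it was not called, and by 12.9 from replicates 5 to 7. Cs, citrate synthase, differed by -0.121 (adjusted p = 0.497) on the larger and fell by 0.754 (adjusted p = 0.00186) on the smaller design. Of 15 glycolysis genes 7 were higher on both designs and 0 lower on both, among them Pkm, a pyruvate kinase (1.93 and 1.80). Of 10 carriers, channels and creatine kinases 3 were higher on both, a share near that of all probe sets.

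Of 4 measured regulators of mitochondrial biogenesis, 2 were higher on both designs, where 23.8% of all probe sets were higher and 20.1% lower on both. Ppargc1a, the coactivator PGC-1alpha, rose by 9.87 (SE 1.12, adjusted p = 2.81e-04) and 12.7 (SE 2.32, adjusted p = 5.74e-04), with a mean log2 value of 3.22 over all arrays. Tfam, which packages and transcribes mitochondrial DNA, differed by -2.93 and -2.82 (adjusted p = 0.147 and 0.348), and fell by 6.69 (adjusted p = 0.00232) against saline replicates 1 and 2 alone. Sod2, the manganese superoxide dismutase of the mitochondrial matrix, rose by 5.50 and 8.61 (adjusted p = 4.73e-06 and 3.01e-04), and of its list of 7 antioxidant genes 1 was higher and 1 lower on both designs. The one lower on both was Txnrd2, the thioredoxin reductase of mitochondria (-6.41 and -5.76). Of 6 genes of ketone body and monocarboxylate use 1 was higher on both, Slc16a1, a transporter of lactate and ketone bodies (5.50 and 9.86, the second being 2.52 and 14.8 against the saline sets 1 and 2 and 5 to 7). Among 4 mitochondrial ribosomal proteins 0 were higher and 1 was lower on both designs, Mrpl23 (-4.56 and -10.5), and of 2 assembly factors neither was called the same way on both.

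Corticosterone against saline was compared on the smaller design (6 arrays against 10), where the agent and the set normalized together cannot be told apart. Of the 31 members 11 were higher and 2 lower in corticosterone pups, 35.5% and 6.45%, against 27.8% and 34.2% of all probe sets, and the median difference was 0.131 percentile points where that of all probe sets was -0.189. With the replicate number as a block, which leaves the comparison to replicates 1 and 2, 19 were higher and 2 lower (background 33.3% and 38.6%). Against saline replicates 1 and 2 alone 19 were higher and 4 lower (background 35.5% and 41.7%), and against replicates 5 to 7 alone 10 and 6 (background 27.5% and 33.4%). Against both sets 7 were called higher, Atp5c1, Atp5f1, Atp5g1, Atp5k, Cox7a3, Ndufs6 and Sdhd, and 1 lower, Cox6a1, where 22.4% of all probe sets were higher and 28.8% lower against both, so the share of higher members was near the background. On log2 minus the array median 14 were higher and 4 lower, against 48% and 27% of all probe sets, and the member median of 0.12 was below that of all probe sets, 0.28. On the same arrays 4 of 6 neuron markers were lower in corticosterone pups, but 2 of 6 against saline replicates 5 to 7 alone. Higher were 3 of 6 striatal and 3 of 5 hypothalamus markers, with 0 lower in either list. Against replicates 5 to 7 alone these lists gave 3 higher and 0 lower, and 3 higher and 1 lower. Of 6 muscle markers 3 were higher and 3 lower, and of 7 oligodendrocyte markers 0 were higher and 2 lower. The part of these in the results on the chain was not tested.

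Atp5f1, the b subunit of the peripheral stalk, lay at 98.5 to 98.9 (median 98.8, n = 6) in corticosterone pups, against 97.5 to 98.0 (median 97.8, n = 10) in saline pups. It rose by 0.974 (SE 0.0990, adjusted p = 5.01e-07), with 1.02 and 0.941 against the saline sets. Of all probe sets 27.8% were called higher and 34.2% lower in this comparison. Ndufs6 lay at 97.7 to 98.1 (median 97.9, n = 6) in corticosterone pups, against 95.9 to 97.3 (median 96.8, n = 10) in saline pups. Its rise was 1.35 (SE 0.245, adjusted p = 2.05e-04). Atp5k, lower with age, was higher here, at 94.0 to 94.8 (median 94.4, n = 6) in corticosterone pups, against 85.0 to 93.7 (median 89.9, n = 10) in saline pups, a rise of 5.06 (SE 1.32, adjusted p = 0.00392). The probe set with a title of similarity to the same subunit, the ATP synthase e chain, went the other way. It differed by -1.61 (adjusted p = 1.08e-07), and by -1.73 (adjusted p = 6.15e-07) from saline replicates 5 to 7 alone. The probe sets for this subunit thus disagree in sign with corticosterone. Cox6a1 lay at 97.8 to 98.3 (median 98.2, n = 6) in corticosterone pups, against 98.6 to 99.28 (median 99.04, n = 10) in saline pups, and fell by 0.809 (SE 0.132, adjusted p = 7.92e-05). Atp5b fell by 0.303 (adjusted p = 0.0188), and its difference from saline replicates 5 to 7 was -0.183 (SE 0.0789, adjusted p = 0.0658).

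For complex II the direction depended on the scale in this comparison. Sdha measured 93.9 ± 0.309 in corticosterone pups (n = 6) and 93.2 ± 0.688 in saline pups (n = 10), a rise in rank of 0.761 (SE 0.309, adjusted p = 0.044), but its log2 value minus the array median differed by -0.14 (SE 0.06, adjusted p = 0.0555). Sdhd rose in rank by 0.946 (SE 0.273, adjusted p = 0.00743) and differed by -0.12 (SE 0.06, adjusted p = 0.0757) as log2 minus the array median. Ndufa10 rose in rank by 1.71 (SE 0.697, adjusted p = 0.044) and differed by -0.12 (SE 0.10, adjusted p = 0.279) on the other scale. Ndufs6, Atp5f1, Atp5k and Atp5g1 kept their sign there, at 0.38, 0.53, 0.55 and 0.50, each above the shift of 0.28 of the median probe set.

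Pairing of odor and shock, the learning contrast of the study, was tested by rank products within each condition, and members were called where the pfp, the share of false positives estimated for a list that ends at that rank, was under 0.05. It called 0 of 31 members in 12-day, corticosterone or saline pups. The rank product called 0.0504% of probe sets higher and 0% lower in paired 12-day pups, 0.0252% and 0% in paired corticosterone pups, and 0.0693% and 0.107% in paired saline pups. The lowest pfp of a member was 0.875 in 12-day, 0.827 in corticosterone and 0.920 in saline pups, and in the authors' deposited tables it was 0.876, 0.814 and 0.919. Limma called 0 probe sets in each condition, with 73, 449 and 72 of all probe sets, and 0, 1 and 0 members, at an unadjusted p under 0.05 in the same order. These counts leave out that same-numbered arrays deviated together in 12-day and saline pups. With the replicate number as a block, limma again called 0 probe sets, with 428, 320 and 2137 of them and 0, 1 and 1 members at an unadjusted p under 0.05. Rank products over same-numbered arrays called 0 members, with 0.139% of probe sets higher and 0.0756% lower in paired 12-day pups, and 0.309% and 0.347% in paired saline pups.

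Differences between paired and unpaired pups lay from -0.04 to 0.12 in 12-day, from -0.08 to 0.27 in corticosterone and from -0.08 to 0.10 in saline pups on the log2 scale. Of the members 21, 22 and 17 were above 0 in these conditions, where 40.8%, 38.2% and 61.1% of all probe sets were, and the medians were 0.016, 0.020 and 0.009, against -0.007, -0.022 and 0.016 for all probe sets. Leaving out 1 array moved the 12-day median between -0.025 and 0.086 and the saline median between -0.025 and 0.045. Ndufa5 in corticosterone pups had the widest difference. Its log2 values were 8.73, 8.91 and 9.03 in paired pups, against 8.56, 8.61 and 8.70 in unpaired pups, 0.27 apart (SE 0.09, pfp 0.827, limma adjusted p = 0.676). Sdha differed by 0.08 (SE 0.18, pfp 1.16) in 12-day pups, Cycs by -0.04 (SE 0.06, pfp 1.09) in corticosterone pups and Cox7b by 0.10 (SE 0.14, pfp 1.15) in saline pups.

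The pairing difference itself did not pass between conditions. Limma interactions called 0 members and 0 probe sets for corticosterone against saline and for 12-day against saline pups, with 65 and 53 of 15866 probe sets and 0 members at an unadjusted p under 0.05. In these fits the spread between array sets was part of the error, and a missed threshold does not show that the differences are equal.

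**Figure D5:**
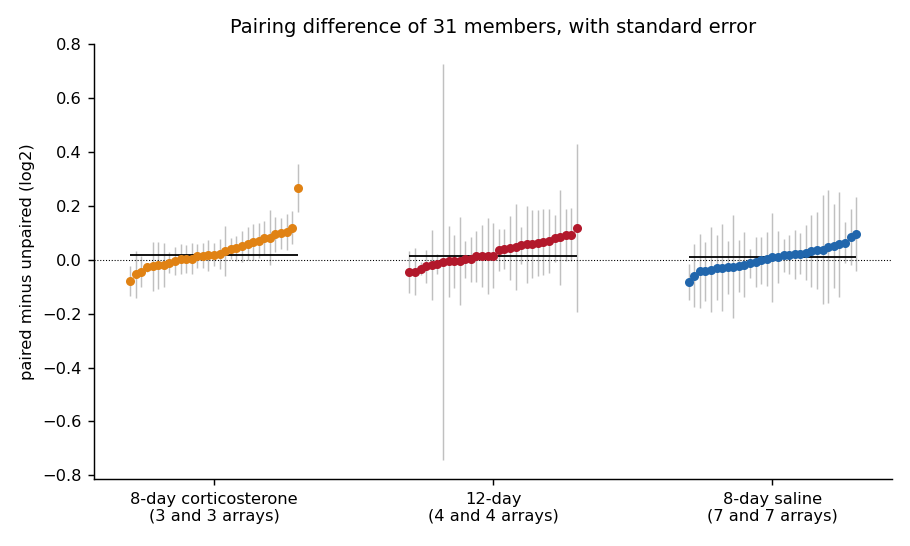
Difference of paired minus unpaired pups on the log2 scale (y axis) for the 31 members in each condition, sorted within a condition, with standard errors from limma as bars and the median as a line. All lie between -0.08 and 0.12 except Ndufa5 in corticosterone pups at 0.27, and the long bar in 12-day pups is Cox6a2.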

How the data were processed

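Per the submitters' processing notes the values were made with RMA and GCRMA, whose versions and roles are not given in the sources used here. The authors deposited log2 values per probe set for 28 arrays, of which the 15866 probe sets shared by both array designs were used. The authors also deposited, per the file headers, rank product tables with a score (the rank product and its pfp), a ratio (the fold of unpaired over paired) and a p-value per probe set. Group means computed here matched the deposited folds to within 0.000307 on the log2 scale. Array medians lay close together within a condition and apart between conditions, so values were compared between conditions as within-array percentile ranks.

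Samples were grouped by their labels. Pairing was tested by rank products with 100 within-array shuffles per condition, and by limma 3.58.1 in R 4.3.3 for differences, standard errors and interactions. Age and corticosterone were tested by limma (lmFit, eBayes with trend) on the ranks with training as a covariate, at a Benjamini-Hochberg adjusted p under 0.05 over all probe sets. Ranks and counts were computed in Python 3.11.15 with numpy 2.4.6, pandas 2.3.3 and scipy 1.17.1, and figures with matplotlib 3.10.9. The procedures were tested on simulated data with independent noise, which held neither the array sets nor the shared deviation of same-numbered arrays. Alternatives were another scale, a filter at a mean log2 of 5, other saline sets, the replicate number as a block, and each array left out. Same-numbered paired and unpaired arrays deviated together in 12-day pups (correlations of 0.598 to 0.734, 4 pairs) and saline pups (0.537 to 0.860, 7 pairs), but not in corticosterone pups (-0.283 to 0.0434, 3 pairs).

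The members, gene lists and motifs were chosen with earlier results of these data known. Named members were those called in a comparison, those with the smallest p per complex and direction, isoform pairs and Cycs. The array sets, the title-only probe sets and the second probe sets were taken up after values had been seen. Genes with a pattern like that of the members were planned and computed, but are not given, because the arrays fall into separate sets over which a pooled correlation cannot be read. Symbols were brought up to date through RefSeq (GRCr8).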

Additional observations from a re-analysis of the deposited data

Results flagged for a closer look

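Of 124 groups of 4 or 7 arrays (1 group per member and set of paired or unpaired pups), 7 held an array far from the others of its group, where chance alone gives about 1 in 20. Cox8h measured 3.65 on the log2 scale on saline paired replicate 5 (others 2.41 to 2.56) and 3.33 on saline unpaired replicate 5 (others 2.41 to 2.53). Cox6a2 measured 1.85 on saline paired replicate 1 (others 1.68 to 1.74) and 2.08 on saline unpaired replicate 2 (others 1.65 to 1.73). Ndufa10 measured 10.52 on saline paired replicate 2 (others 10.00 to 10.16). Atp5g1 measured 12.27 on 12-day unpaired replicate 2 (others 12.41 to 12.44), and Atp5j 12.01 on 12-day unpaired replicate 3 (others 12.27 to 12.29).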

How the results depend on the processing

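Of 1002 values of called members under alternatives, 854 kept direction and side of the threshold, 136 kept direction only and 12 reversed. The causes were not tested. Reversed were, in the age comparison on the larger design, Cox8h (-0.31 as log2 minus the array median, -0.32 percentile points with both designs in 1 fit) and Atp5e (-0.083 with both designs in 1 fit). As log2 minus the array median in the corticosterone comparison, with all saline arrays, replicates 1 and 2, and replicates 5 to 7, Sdha gave -0.14, -0.045 and -0.21, Sdhd -0.12, -0.11 and -0.12, and Ndufa10 -0.12, -0.25 and -0.030. Calls are given next as members higher and lower, with the counts of all 15866 probe sets in brackets. With age on the larger design the 23 calls, 19 and 4 (5806 and 4861), were 8 and 2 in paired arrays alone (4110 and 3476). In unpaired arrays alone they were 10 and 3 (4230 and 3680). Calls on the smaller design (9) were 14 with normal scores, 16 with the replicate block, 18 with either saline set alone, 25 and 24 with these sets as log2 minus the array median, 4 in paired and 3 in unpaired arrays alone, and 18 with both designs in 1 fit (25 without saline replicates 5 to 7). With corticosterone the 13 calls, 11 and 2 (4417 and 5431), were 19 and 2 with the replicate block (5285 and 6123). Saline replicates 1 and 2 alone gave 19 and 4 (5638 and 6612). As log2 minus the array median these gave 21 and 3 (8684 and 4844), and replicates 5 to 7 gave 12 and 9 (7680 and 4669). Leaving out 1 array, given without counts of all probe sets, gave 18 to 20 and 3 to 4 with age on the larger design. It gave 4 to 9 and 1 to 2 on the smaller design, and 7 to 12 and 2 with corticosterone. It gave pairing medians of -0.025 to 0.086 in 12-day, 0.012 to 0.043 in corticosterone and -0.025 to 0.045 in saline pups. With the replicate block pairing still gave 0 called members in every condition. Ranks over all probe sets of an array were not run, because only the shared probe sets were used. Cox4b, Cox8h and, outside the 12-day arrays of the smaller design, Cox6a2 lie at low levels of the arrays, which limits what their ranks show.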

Other observations

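Markers of cells not described above were read in the same way, beside 23.8% of all probe sets higher and 20.1% lower on both designs. These lists are short, so a count of 1 or 2 genes is not told from those shares. Of 3 measured endothelial markers 2 were higher in 12-day pups on both designs, of 3 choroid plexus markers 1 was, and of 3 erythrocyte markers 2 were lower on both. Of 6 striatal projection neuron markers 0 were called the same way on both designs, and of 5 hypothalamus markers 2 were higher on both.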
